A study of Mus musculus with 4 samples.

Results

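*Nop56* and *Hnrnpa2b1* are short genes for RNA-binding proteins whose transcripts carried dense peaks of the RNA helicase eIF4A3 in mouse embryonic stem cells. Their peaks were selected on position, as the entries of the peak list inside a window on the plus strand of chromosome 2 (mm9 130099000 to 130106000, *Nop56*) or on the minus strand of chromosome 6 (mm9 51409500 to 51421000, *Hnrnpa2b1*). The windows were chosen with the fold changes and p-values of the peaks known, so those values are described here and not tested. The *Nop56* window held 23 peaks and the *Hnrnpa2b1* window 24, together 47 of the 30763 peaks listed.

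The series has 4 libraries of J1 cells, a feeder-free embryonic stem cell line of strain 129S4/SvJae, kept in serum with leukemia inhibitory factor and crosslinked with ultraviolet light of 254 nm at 400 mJ/cm2. In enhanced crosslinking and immunoprecipitation (eCLIP), RNA bound to the crosslinked protein is recovered with an antibody and sequenced, here as 2 libraries from an eIF4A3 antibody and 2 input libraries without antibody. The deposited list gives each peak 1 log2 fold change and 1 −log10 p for the whole series, both the authors' values. It holds no value per library and no read number, so depth is unknown and no spread between replicates can be given.

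eIF4A3 is the RNA-clamping subunit of the exon junction complex, which splicing deposits on messenger RNA about 20 to 24 nt upstream of each exon junction and which ribosomes remove during translation. NOP56 is a core protein of the box C/D small nucleolar ribonucleoproteins, which methylate ribosomal RNA at sites chosen by a guide RNA, and several small nucleolar RNAs are processed from introns of its own gene. hnRNP A2/B1 binds pre-messenger RNA and messenger RNA and acts in splicing and RNA transport. Its A2 and B1 forms differ by a short alternative exon near the start of the coding sequence.

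In both genes the peaks lay almost wholly in exons, and their edges matched exon edges more exactly in *Hnrnpa2b1*. The gene models used, those of GENCODE M21, are on GRCm38, and no position was carried from one build to the other. Instead, the widths of peaks and the gaps between them, in nt, were compared with the lengths of exons and introns of the gene's transcripts. Peaks that adjoin without a gap were first joined into runs, 8 in each gene. In *Nop56* the first run was 90 nt wide, the gap after it 308 nt and the next run 115 nt, and exon 2, intron 2 and exon 3 of transcript Nop56-202 are 90, 308 and 115 nt long. In *Hnrnpa2b1*, runs of 81 and 63 nt were separated by 900 nt, and exon 6, intron 6 and exon 7 of transcript Hnrnpa2b1-202 are 81, 900 and 63 nt long. Among the 141767 transcripts of the annotation, the chain of 90, 308 and 115 nt occurred in 1 gene, *Nop56*, and that of 81, 900 and 63 nt in 1 gene, *Hnrnpa2b1*. These chains were picked because they matched these genes, so the search could only show whether other genes share them. The strand was that of the annotated gene in both cases by construction, since each window takes that strand alone.

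The 4 exons that lay wholly under peaks and are wholly coding are shown as the RNA with the most complete cover by peaks, read from GENCODE M21 transcripts (GRCm38). They lie at chr2:130274634-130274723 and chr2:130275032-130275146 on the plus strand for *Nop56*, and at chr6:51466142-51466222 and chr6:51465179-51465241 on the minus strand for *Hnrnpa2b1*. Capitals mark the bases 24 to 20 nt upstream of the 3′ end of the exon, counting its last base as 1, where exon junction complexes are known to be deposited.
Nop56 exon 2: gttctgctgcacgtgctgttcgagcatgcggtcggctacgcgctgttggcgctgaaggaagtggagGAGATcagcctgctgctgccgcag
Nop56 exon 3: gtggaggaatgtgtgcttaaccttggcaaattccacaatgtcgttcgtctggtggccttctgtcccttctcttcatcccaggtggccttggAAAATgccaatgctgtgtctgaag
Hnrnpa2b1 exon 6: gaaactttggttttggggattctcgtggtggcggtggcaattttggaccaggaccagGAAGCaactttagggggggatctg
Hnrnpa2b1 exon 7: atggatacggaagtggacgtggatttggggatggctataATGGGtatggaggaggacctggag

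With the remaining exons and introns laid out by their lengths, every run of *Hnrnpa2b1* fell within an exon. Of its 16 run edges, 10 coincided to the nucleotide with the same kind of exon edge (5′ with 5′, 3′ with 3′), and any other placement of the model shifted by more than 10 nt gave at most 2. This count takes the listed end position as part of the peak, and with the end left out, as in the BED format, it was 6. The gap from exon 2 to exon 3 was 132 nt and intron 2 is 132 nt long. The gaps after exons 5, 6 and 7 were 80, 900 and 631 nt, each the length of the intron there. All 640 nt under its peaks were exonic in Hnrnpa2b1-202. Transcripts Hnrnpa2b1-203 and Hnrnpa2b1-204 also matched 10 edges exactly, with 636 and 582 of the 640 nt in exons. The tie was settled by that exonic length, so the full share is partly built in. In *Nop56*, 4 of 16 edges coincided exactly, 8 within 1 nt and 10 within 3 nt. Placements shifted by more than 10 nt gave at most 2 exact matches. Smaller shifts were left out of that comparison, among them the shift of 1 nt that would match the 3′ ends of exons 4, 6 and 7. From exon 4 on, the runs that reached toward an exon's 3′ end stopped 1 nt short of it in exons 4, 6 and 7 and 4 nt short in exon 5. Whether the builds differ by a nucleotide in intron 3 was not tested. Of the 506 nt under *Nop56* peaks, 503 were exonic, and the other 3 nt lay just before exon 4. Transcripts Nop56-204 (7 exons) and Nop56-206 (5 exons) also matched 4 edges exactly, with 499 and 396 of the 506 nt in exons. Exon numbers of *Nop56* here follow Nop56-202, which has 12 exons.

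**Figure D1:**
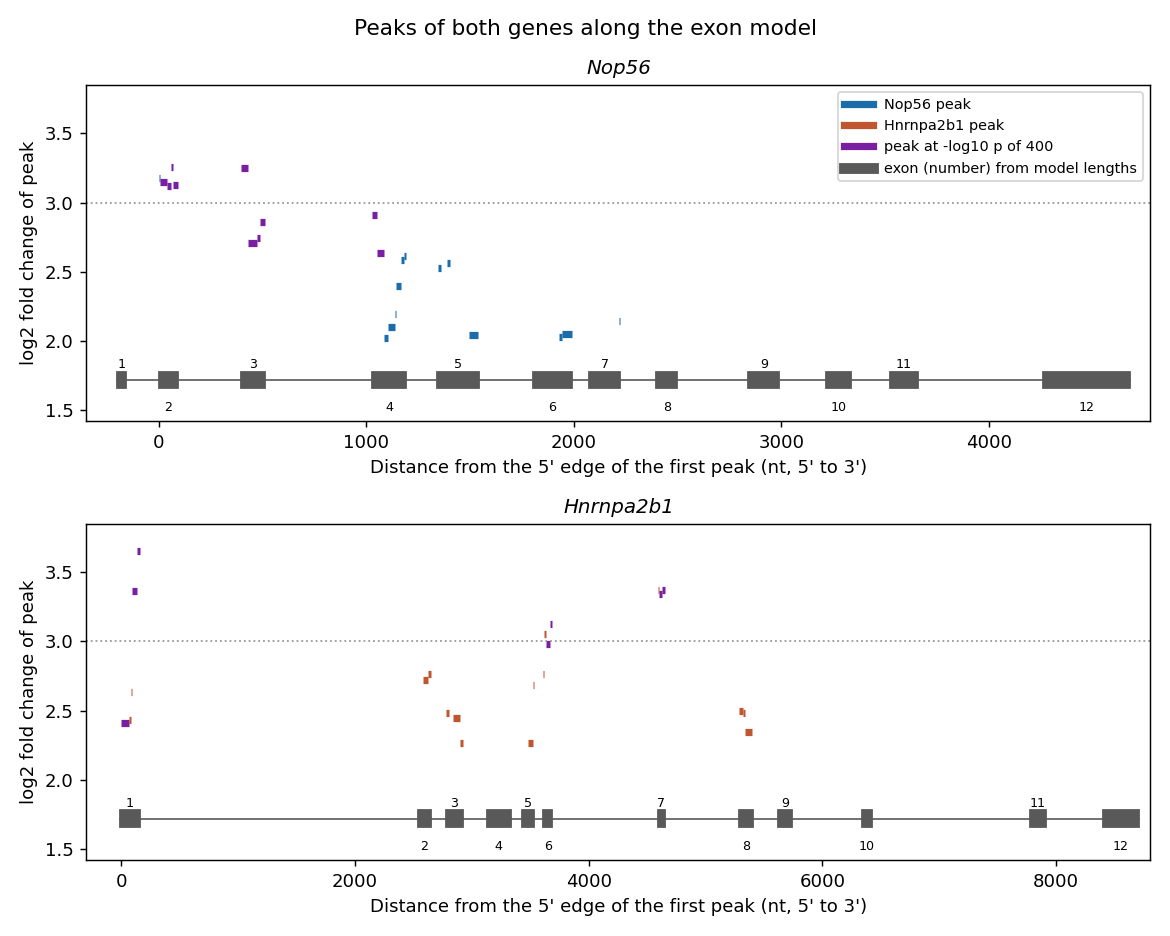
Peaks of *Nop56* (top) and *Hnrnpa2b1* (bottom) by distance from the 5′ edge of the first peak (x axis, nt) and log2 fold change (y axis). Each bar is a peak drawn to its width, purple where −log10 p is 400, grey boxes are exons placed by model lengths, and the dotted line marks a log2 fold change of 3. *Nop56* peaks end at exon 7 and descend along the gene, while *Hnrnpa2b1* peaks end at exon 8 and are highest at exons 1 and 7.

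The exons with peaks formed the 5′ part of both transcripts. *Nop56* had peaks in 6 of 12 exons, exons 2 to 7, and *Hnrnpa2b1* in 7 of 12, exons 1 to 3 and 5 to 8. No peak lay in *Nop56* exon 1, which is 47 nt long, in its exons 8 to 12, or in *Hnrnpa2b1* exons 9 to 12. *Hnrnpa2b1* exon 4 was the only exon without a peak between peaked exons of either gene. At 211 nt it is longer than every exon of that model that carried peaks (63 to 175 nt). Peaks covered 26.8% of the 1877 exonic nt of *Nop56* and 38.5% of the 1662 exonic nt of *Hnrnpa2b1*. Up to the last peaked exon the shares were 52.8% and 63.4%.

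Coverage of single exons ran from complete to a few bases. In *Nop56* it was 100% in exons 2 and 3, 99.4% in exon 4, 36.2% in exon 5, 32.4% in exon 6 and 2.63% in exon 7, so it fell from each exon to the next after exon 3. *Hnrnpa2b1* showed no such order: the shares were 91.4% in exon 1, 56.8% in exon 2, 76.9% in exon 3, 48.0% in exon 5, 100% in exons 6 and 7 and 92.5% in exon 8. GC content overlapped between exons with peaks and those without, though most peaked exons of *Hnrnpa2b1* were higher. In *Nop56* it was 46.2 to 63.3% with peaks and 45.0 to 70.2% without, and in *Hnrnpa2b1* 40.2 to 66.9% with peaks and 30.6 to 49.4% without. These ranges overlap in both genes. In *Hnrnpa2b1*, the peaked exons 1, 3, 6, 7 and 8 lay at 51.0 to 66.9%, above every exon without a peak. Its peaked exons 2 and 5, at 41.4% and 40.2%, lay within the range of those without. Whether GC content relates to the peaks was not tested.

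**Figure D2:**
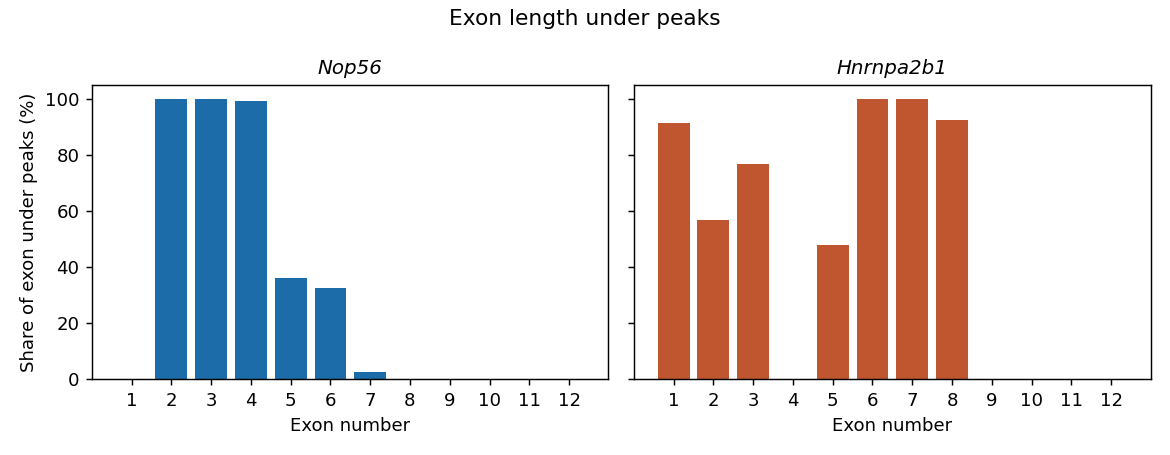
Share of each exon's length under peaks (y axis, %) by exon number (x axis) in *Nop56* (left) and *Hnrnpa2b1* (right). *Nop56* falls from 100% in exons 2 and 3 to 2.63% in exon 7 and is 0 after it, and *Hnrnpa2b1* has a bar of 0 at exon 4 between covered exons.

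Coverage near the exon ends was compared at matched distances, over all peaked exons, the wholly covered ones included. *Hnrnpa2b1* has 7 peaked exons that precede a junction and 6 that follow one. At the first nt of the exon 4 of the 6 were under a peak and at the last nt 6 of the 7. At 22 nt from the ends the counts were 4 on the 5′ side and 7 on the 3′ side, and at 60 nt 5 and 6. All 7 were under a peak from 49 to 10 nt upstream of the 3′ end, and all 6 at 62 to 63 nt downstream of the 5′ end. Exon 2 had its 63 nt at the 3′ end under peaks and the first 48 nt free, and exon 5 its last 49 nt under peaks and the first 53 free. In *Nop56* the 3′ side had more exons under a peak at every distance from 2 to 48 nt. The sides were equal from 49 to 100 nt, and the 5′ side was higher at 1 nt only. The *Nop56* counts over 6 peaked exons were 3 on the 5′ side and 2 on the 3′ side at 1 nt, 3 and 5 at 22 nt, and 4 and 4 at 60 nt. *Nop56* exon 6 was covered over 61 of its 188 nt, starting 126 nt into the exon. The interval from 24 to 20 nt upstream was under a peak in 7 of 7 peaked exons of *Hnrnpa2b1* and in 5 of 6 of *Nop56*. The exception was *Nop56* exon 7, whose single peak of 4 nt lay at the end of the exon.

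**Figure D3:**
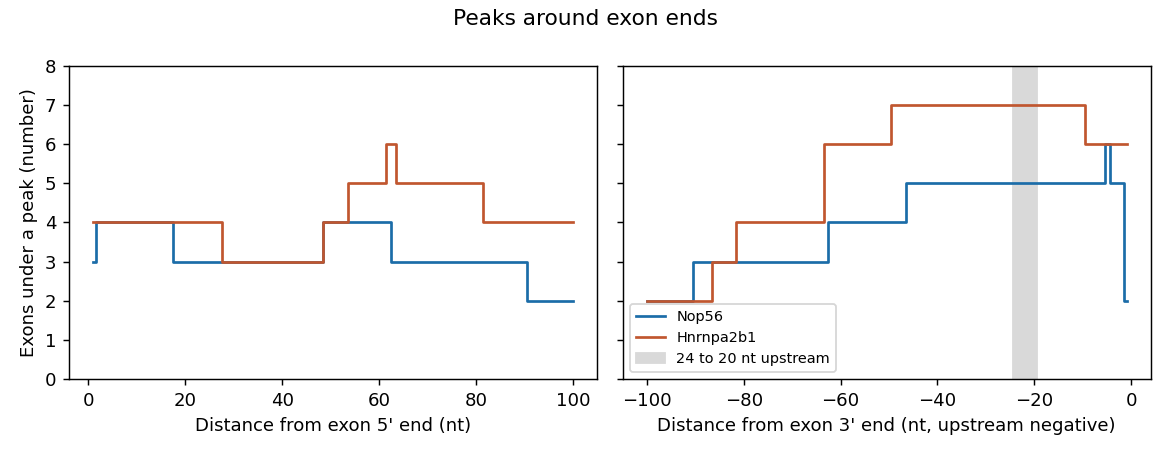
Number of exons under a peak (y axis) by distance in nt from the exon's 5′ end (left, exons that follow a junction) and from its 3′ end (right, exons that precede a junction), with blue for *Nop56* and orange for *Hnrnpa2b1*. The grey band is 24 to 20 nt upstream, where 7 exons of *Hnrnpa2b1* and 5 of *Nop56* were under a peak.

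Fold change was not highest over that interval in most exons. The peak with the highest log2 fold change of its exon reached the interval in 2 of the 5 *Nop56* exons (2 and 6) and in 3 of the 7 *Hnrnpa2b1* exons (1, 6 and 7). Within *Nop56*, the 7 peaks that touched it had a median log2 fold change of 2.59 and the other 16 a median of 2.63. In *Hnrnpa2b1* the medians were 2.72 over 7 peaks and 2.69 over 17.

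The sources do not say which libraries form the numerator of the fold change, so high and low refer here to the listed value alone. In *Nop56* the highest log2 fold changes lay in exons 2 and 3. The highest log2 fold change of the gene, 3.25 (9.54-fold), belonged to a peak of 11 nt in exon 2 from 130100427 to 130100437 on mm9. The next was 3.25 (9.50-fold) in the first 29 nt of exon 3, from 130100768 to 130100796, followed by 3.18 (9.05-fold) in the first peak of the gene, from 130100370 to 130100372. All 5 peaks of exon 2 lay between 3.12 and 3.25, so that exon was nearly flat.

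Exon 3 stepped down from 3.25 in its first peak to 2.71 in the widest, a 44-nt peak from 130100797 to 130100840, and then rose to 2.86 at its 3′ end. Exon 4 was the most divided, with 8 peaks. It began at 2.91, fell to 2.02 in the peak from 130101453 to 130101474, the lowest value of the gene (4.06-fold), and rose again over its last 5 peaks to 2.62. Downstream, exon 5 held peaks of 2.53, 2.56 and 2.04 and exon 6 peaks of 2.03 and 2.05. The last peak, from 130102590 to 130102593 in exon 7, stood at 2.14.

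The log2 fold change of *Nop56* peaks thus declined with their order from 5′ to 3′, with a Spearman rho of -0.84 over 23 peaks that share a transcript and the same libraries. For *Hnrnpa2b1* the same rho was 0.11 over 24 peaks. Both are descriptions of listed peaks.

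In *Hnrnpa2b1* the high values lay in exons 1, 6 and 7. The 3′-most peak of exon 1, 27 nt from 51419670 to 51419696 on mm9, had the highest log2 fold change of the gene, 3.65 (12.6-fold). Along exon 1 the 5 peaks rose without a break toward the junction, from 2.41 in the first and widest (66 nt, 51419764 to 51419829) through 2.43, 2.64 and 3.37 to 3.65. Exon 1 of the model is 5′ untranslated apart from its last 6 nt.

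The 4 peaks of exon 7 lay between 3.31 and 3.37, a narrower range than that of *Nop56* exon 2. Those from 51415178 to 51415203 (3.37, 10.4-fold) and from 51415231 to 51415237 (3.37, 10.3-fold) came next after it in the gene. Exon 6 rose from 2.76 at its 5′ end to 3.12 at its 3′ end.

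The other exons were lower. Exon 2 held 2.72 and 2.76, exon 3 held 2.48, 2.44 and 2.27, and exon 8 fell from 2.62 to 2.35 in the last peak of the gene (51414436 to 51414489). The lowest value, 2.26 (4.80-fold), was a 47-nt peak in exon 5 from 51416304 to 51416350. The narrowest peak, 2 nt from 51416302 to 51416303, adjoined it at the exon's 3′ end with 2.69. Between adjoining peaks of a run, taken 5′ to 3′, the log2 fold change rose in 9 of 15 steps in *Nop56* and in 10 of 16 in *Hnrnpa2b1*.

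Fold changes of both genes lay near those of the list as a whole, and their −log10 p lay high in it. The median log2 fold change was 2.62 in *Nop56* and 2.71 in *Hnrnpa2b1*, a difference of -0.09, beside 2.72 over the whole list. Weighted by peak width the order of the genes reversed, with 2.64 in *Nop56* and 2.50 in *Hnrnpa2b1*. At a log2 fold change of at least 3 (8-fold) with −log10 p of at least 3 stood 6 of 23 *Nop56* peaks (26.1%) and 8 of 24 *Hnrnpa2b1* peaks (33.3%), near the 32.3% of all listed peaks. By contrast 10 *Nop56* peaks (43.5%) and 7 *Hnrnpa2b1* peaks (29.2%) had a −log10 p of 400, the highest value listed, which 89 peaks or 0.289% of the list carried. The windows were chosen with these p-values known, so nothing is read from that contrast. The value next below in the list is 88.1, so 400 may be a limit, and it does not rank the peaks that hold it.

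The 10 such *Nop56* peaks were peaks 2 to 11 in order from the 5′ end, an unbroken series through exons 2 and 3 into the first 2 peaks of exon 4. The first of them starts at 130100373 and the last ends at 130101452. Their log2 fold changes ran from 2.64 to 3.25 and their widths from 11 to 44 nt. The 13 other peaks reached at most 55.4, and the lowest −log10 p was 20.4, in the last peak. In *Hnrnpa2b1* the 7 peaks at 400 lay in exons 1 (3 peaks), 6 (2) and 7 (2), with log2 fold changes of 2.41 to 3.65. The widest peak of the gene, at 2.41, was among them. The 17 others ran from 25.01 to 87.0. Every peak of both genes lay above 16.1, the upper quartile of the list.

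**Figure D4:**
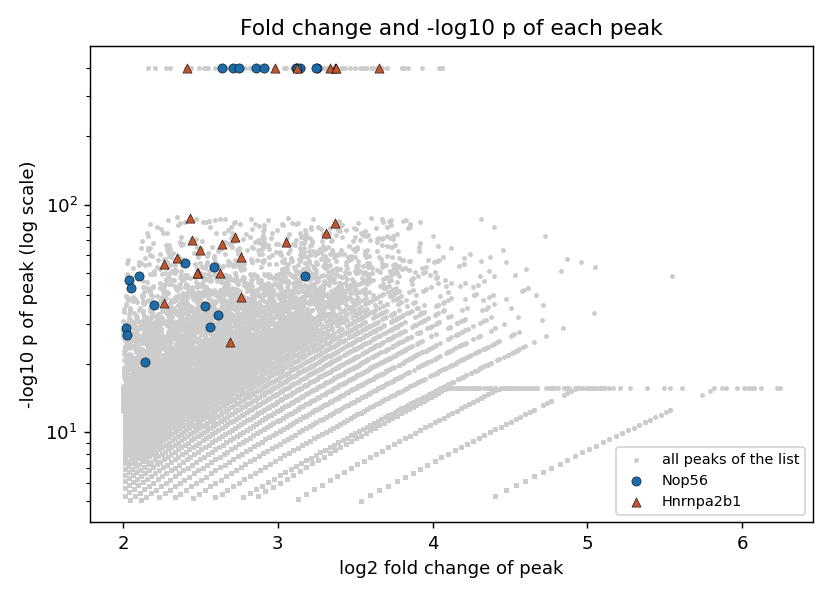
Log2 fold change (x axis) and −log10 p (y axis, log scale) of all 30763 listed peaks (grey), with *Nop56* as blue circles and *Hnrnpa2b1* as orange triangles. Members sit at or above a −log10 p of 20.4, and 10 and 7 of them lie on the line at 400.

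Both genes were compact. The peaks of *Nop56* spanned 2224 nt, of which 22.8% was under peaks, and those of *Hnrnpa2b1* 5394 nt with 11.9% under peaks. The larger share in *Nop56* goes with shorter introns in the model: between its peaked exons they measure 83 to 516 nt, while intron 1 of *Hnrnpa2b1* alone measures 2375 nt. Joining peaks within 50 nt gave 7 sites in each gene. The widest sites of *Nop56* were 164 nt (exon 4), 115 nt (exon 3) and 90 nt (exon 2), and those of *Hnrnpa2b1* 160 nt (exon 1), 147 nt (exon 3) and 111 nt (exon 8). Median peak width was 22 and 26.5 nt.

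No peak on the opposite strand lay in either window. The nearest peaks on the same strand outside the windows were 1063910 nt before and 160806 nt after the *Nop56* peaks, with log2 fold changes of 2.35 and 3.16. For *Hnrnpa2b1* the nearest were 2213476 nt away on the lower side and 452492 nt away on the upper side, at 2.18 and 3.597. The window limits therefore exclude no close neighbour.

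Among the 796 groups of at least 10 peaks joined within 10 kb on the same strand, *Nop56* was 3rd in peaks per kb, at 10.3, and *Hnrnpa2b1* 27th, at 4.45, where the median group had 0.949. In share of span covered they were 7th and 32nd. *Hnrnpa2b1* had the highest median −log10 p of all 796 groups, 69.2, and *Nop56* was 7th with 53.0, beside a median group of 11.3. In median log2 fold change they were 504th and 412th. Compared with groups whose span was within 1.5 times its own, *Nop56* held 23 peaks where the 18 others held at most 17, and 10 peaks at 400 where the others held at most 3. *Hnrnpa2b1* held 24 peaks among 87 such groups with a median of 14 and a highest of 44, and 7 peaks at 400 against at most 3. These ranks come from values known when the genes were chosen and were not tested.

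Outside these genes, the groups with the most peaks at 400 were long. A group on the minus strand of chromosome 13 (6599846 to 6624459) held 12 such peaks of 50 over 24614 nt, and a group on the minus strand of chromosome 1 (71672611 to 71699651) held 10 of 54 over 27041 nt. Peaks covered 4.73% and 5.10% of those spans, below both genes here. At 8-fold or more stood 30 of the 50 peaks on chromosome 13 (60%) and 8 of the 54 on chromosome 1 (14.8%), beside 32.3% of the list. These counts cover all peaks of each group and not those at 400 alone.

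The introns that host small nucleolar RNAs carried no peak of *Nop56* in the layout by lengths, apart from the 3 nt before exon 4. The annotation places 5 such RNAs in Nop56-202, in introns 3, 5, 8, 9 and 10. Introns 3 (516 nt) and 5 (261 nt) lie between peaked exons, with gaps of 513 and 391 nt between the runs around them. Introns 8, 9 and 10 lie beyond the last peak. Snord110, at chr2:130275506-130275573 on GRCm38 plus strand, is the RNA of intron 3. It is shown as a part of the 513 nt left free between the peaks of exons 3 and 4. Capitals mark the first TGATGA (box C) and the last CTGA (box D), searched on the RNA's own strand only.
Snord110: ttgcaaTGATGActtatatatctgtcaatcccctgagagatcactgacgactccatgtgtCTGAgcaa
Both letter groups in this order were present in 361 of 1507 annotated small nucleolar RNAs, and in 1 of the 5 within *Nop56*. Peaks absent from a filtered list do not show that these RNAs were unbound.

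The alternative exons of *Hnrnpa2b1* gave 1 contrast. The 36-nt exon of transcript Hnrnpa2b1-203, the kind of exon that distinguishes B1 from A2, falls in the gap of 2423 nt between the runs of exons 1 and 2, and no peak lay there. The 120-nt exon 8, which transcripts Hnrnpa2b1-201 and Hnrnpa2b1-210 lack, had 111 nt under 4 peaks that began at its first base, with log2 fold changes of 2.35 to 2.62. Transcripts without that exon matched 9 run edges, against 10 for Hnrnpa2b1-202, Hnrnpa2b1-203 and Hnrnpa2b1-204. How much of each form the cells made was not measured in this list.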

How the data were processed

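The peak list of the whole series was used, from eCLIP of 2 eIF4A3 and 2 input libraries. Per the submitters' processing notes, cutadapt 1.18, STAR 2.6.1b and the build mm9 were used. The peak caller, the test, the direction of the ratio and any pooling of replicates were not given in the sources used here. Deposited values are a log2 fold change and a −log10 p per peak, made by the authors. Start and end were both counted as part of a peak, and whether positions count from 0 or 1 is not stated.

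Peaks were taken by the 2 windows, and joined within 50 nt into sites and within 10 kb into groups. Exon and intron lengths came from GENCODE M21. For each coding transcript, the shift that put the most run edges on exon edges was kept, and ties went to the transcript with the most peak nt in exons. This layout recovered 100 of 100 planted models in simulated data, where every run was a whole exon with exact edges. Partly covered exons, offsets of edges and the choice among transcripts were not simulated, so the layout of these genes was not tested by it. Named peaks are the 3 highest and the lowest in fold change, those at the highest −log10 p, the widest and narrowest, and the first and last. Members, lists and layout were chosen with earlier results of these data known. A list of other ribonucleoprotein genes was not used, since it needs an mm9 annotation. No test was run. Python 3.11.15, numpy 2.4.6, pandas 2.3.3, scipy 1.17.1 and matplotlib 3.10.9 were used.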

Additional observations from a re-analysis of the deposited data

How the results depend on the processing

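No paired analysis was possible because each peak has 1 value for all libraries, which also prevents leaving out a replicate. Values for *Nop56* stand first and those for *Hnrnpa2b1* second. The peaks at 8-fold or more, 6 and 8, became 0 and 0 at 16-fold with p at most 1e-05, and 1 and 3 without the tied p-values. The counts of 0 follow from the highest folds of the genes, 9.54 and 12.6. Neither p limit removed a peak, since the lowest −log10 p of the list is 5.01. Peaks at a −log10 p of 400 (10 and 7) lay in 3 and 3 sites. The 7 sites of each gene became 2 and 3 with peaks of at least 8-fold alone. The share of span covered, 22.8% and 11.9%, was 7.23% and 5.56% of the whole window and 5.35% and 3.21% with peaks of at least 8-fold alone, both by construction. Over the settings tried, the median log2 fold change ran from 2.20 to 2.64 in *Nop56* and from 2.50 to 2.76 in *Hnrnpa2b1*. Each move was less than the SD over the gene's peaks. That SD is variation along a transcript and not an error of the median, so it does not show the median to be stable. *Nop56* had the lower median in every setting except weighting by width. The tolerances and other transcripts for matching edges were added after the data were seen. Depth limits every value in a way the list cannot show.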

Other observations

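The match of lengths bears on how the list writes positions. With the end position counted as part of the peak, 10 of 16 run edges of *Hnrnpa2b1* and 4 of 16 of *Nop56* fell on exon edges. With the end left out, as the BED format defines it, 6 and 3 did.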
